A study of Mus musculus with 6 samples.

Results

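The Schlafen genes of the mouse were followed in activated splenic B cells that lack hnRNPL, an RNA-binding protein that regulates splicing. The members were the rows of the count table named Slfn1, Slfn2, Slfn3, Slfn4, Slfn5, Slfn8 and Slfn9, chosen by gene name and not by their values, which made 7 of 55421 rows. The other 4 rows whose name begins with Slfn (Slfn10-ps, Slfn5os, Slfn14 and Slfnl1) are described beside them. GFP+ cells were sorted from cultures of splenic B cells 24 h after activation with LPS (5 µg/ml) and IL-4 (5 ng/ml), with each mouse giving 1 RNA library. The WT group was 3 Rosa mT/mG CD21-cre mice, and the hnRNPL-deficient group was 3 mice with the same alleles and, in addition, Hnrnpl F/F (2 floxed copies of the gene). Both groups thus carried the cre driver and the reporter, in which GFP marks cells where cre has been active. The mice were on the C57BL6/J background, older than 6 weeks and of either sex, with the sex of single animals not given in the sources used here. CD21-cre deletes mostly in mature B cells but also in other tissues during development, so the B cells of hnRNPL-deficient mice matured in animals that were not deficient in B cells alone.

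Schlafen proteins fall into a short group (Slfn1, Slfn2), an intermediate group (Slfn3, Slfn4) and a long group that adds a helicase-like region (Slfn5, Slfn8, Slfn9). Several are induced by interferon. Some restrain lymphocyte growth: a mutation of Slfn2, known as elektra, makes T cells lose quiescence and die when they are activated, and Slfn2 shields transfer RNAs from cleavage in activated T cells. Other family members are known as nucleases or as regulators of RNA translation, and in B cells their roles are less well described.

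The targeted gene was checked first. Hnrnpl held 24370, 25580 and 24170 normalized counts (reads divided by a size factor of the library) in WT mice, against 2178, 1519 and 1297 in hnRNPL-deficient mice, a log2 fold change of -3.93 (SE 0.173, adjusted p = 2.23e-05 from limma). The libraries held between 40395186 and 75180749 reads on genes. The B cell markers Cd79a and Ms4a1 were high in every library, from 17290 to 24300 and from 38990 to 66280 normalized counts. Of 8 T cell markers, Cd3d, Cd3e, Cd3g, Cd4 and Cd8a were under 10 normalized counts in every library. The summed list ran from 184.5 to 228.3 in WT and from 133.0 to 382.3 in hnRNPL-deficient cells. Of these counts, Thy1 held 138.1 to 188.5 in WT and 116.5 to 356.1 in hnRNPL-deficient cells. The summed list of 11 myeloid cell markers ran from 604.6 to 741.8 in WT and from 1662 to 1808 in hnRNPL-deficient cells. Adgre1 alone rose among them, from 277.5 to 1308 normalized counts on average, while 8 of the 11, Lyz2, Csf1r and Cd14 included, were under 10 in every library. Summed plasma cell markers overlapped between the groups (33960 to 39570 and 33300 to 36360). However, Jchain among them fell, with 117.2, 108.9 and 26.0 normalized counts in WT, against 23.4, 7.07 and 13.7. Jchain missed the criteria for a fall, given below, without WT library 1 or 2, without hnRNPL-deficient library 2 or 3, and by edgeR. The T cell marker Cd8b1 fell as well, with 25.1 to 31.4 normalized counts in WT, against 4.51 to 15.1. Cd8b1 missed these criteria without WT library 3 or without hnRNPL-deficient library 1 or 3. Prf1 was the one NK marker of 5 high enough to test, with 26.0 to 33.7 normalized counts in WT, against 43.4 to 65.8 in hnRNPL-deficient cells. Erythroid marker sums ran from 5.19 to 18.6 in WT, against 16.2 to 27.3.

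All 7 members passed the filter on low values, which asked for 10 or more normalized counts on average, and were among the 17640 genes tested with limma on log2(normalized count + 1). A gene was said to have risen or fallen when its adjusted p was under 0.1 and the groups differed by 1.5-fold or more. By both criteria none of the 7 members rose and none fell, where 7.28% of all tested genes rose and 4.08% fell. edgeR and DESeq2, run on the reads of 5 libraries, also called no member. In limma 3 members had an unadjusted p under 0.05, all lower. Of all 17640 genes tested, 2283 were lower and 2547 higher at that limit. Slfn2 and Slfn5 passed the adjusted p alone, both with lower values in hnRNPL-deficient cells. At that looser criterion 7.97% of tested genes were lower and 10.0% were higher. The log2 fold change was below 0 for 6 of the 7 members, compared with 52.7% of tested genes. Its median over the members was -0.38, beside -0.03 over all tested genes. For 3 members, Slfn1, Slfn2 and Slfn5, every hnRNPL-deficient library lay below every WT library, a pattern found in 16.3% of tested genes. The members neighbour each other on chromosome 11 and share their libraries, so they are not independent of one another. In bulk RNA, fewer cells of a type cannot be told apart from less RNA per cell.

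**Figure D1:**
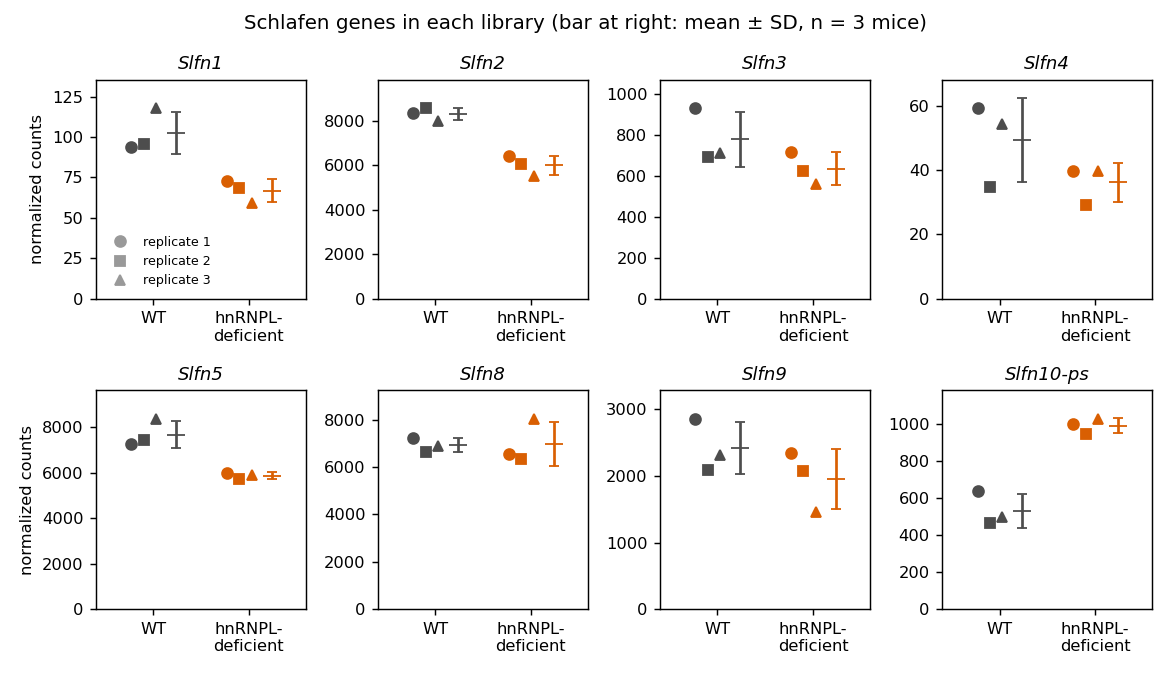
Normalized counts (y axis, from 0) of the 7 Schlafen members and the pseudogene Slfn10-ps in each library of WT and hnRNPL-deficient B cells; symbols mark the replicate number and bars the mean ± SD of 3 mice. The groups separate for Slfn1, Slfn2 and Slfn5 (lower in hnRNPL-deficient cells) and for Slfn10-ps (higher), and overlap for the others.

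The family was unevenly expressed in activated B cells. Levels between genes were compared per kb of annotated exon. In WT cells Slfn2 stood first with 4997 ± 169.8 normalized counts per kb (SD, n = 3), ahead of Slfn8 at 1692 ± 72.9 and Slfn5 at 1214 ± 94.6. Slfn9 followed at 404.8 ± 65.3 and Slfn3 at 227.9 ± 38.7 per kb. Slfn1 had 55.03 ± 7.08 and Slfn4 had 12.5 ± 3.29 per kb. The order was the same in hnRNPL-deficient cells (3602 per kb for Slfn2, 1704 for Slfn8, 928.3 for Slfn5, 327.4 for Slfn9, 186.0 for Slfn3, 35.9 for Slfn1 and 9.14 for Slfn4), and no 2 neighbours in it overlapped between libraries of 1 group. Slfn2 made up 58.1% ± 1.83 of the summed level per kb of the 7 members in WT and 53.0% ± 2.77 in hnRNPL-deficient cells, and Slfn8 made up 19.7% ± 0.628 and 25.1% ± 3.73. Summed without regard to length, the 7 members held 26260 ± 637.5 normalized counts in WT mice, against 21527 ± 611.4 in hnRNPL-deficient ones, 18.0% lower. That was 0.0429% to 0.0460% of all normalized counts in the WT libraries and 0.0359% to 0.0390% in the others.

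Slfn2, of the short group, carries the known role in lymphocyte quiescence. It lies on the plus strand of chromosome 11 (83065112 to 83070678 in GRCm38). It held 8368, 8567 and 8008 normalized counts in WT, against 6404, 6055 and 5522 in hnRNPL-deficient cells. The groups did not overlap, and the mean was 27.9% lower without hnRNPL. The log2 fold change was -0.47 (SE 0.0942, 95% interval -0.69 to -0.26, adjusted p = 0.0166 from limma). Slfn2 passed the adjusted p of 0.1 in every alternative run, with values from 0.00488 to 0.0752, but in none of them was the fold change as large as 1.5. Across the 6 libraries the genes whose deviations from their own mean were most like those of Slfn2 were Pold2, a subunit of DNA polymerase delta, Prdx6, a peroxiredoxin, and Gpd1l, a glycerol-3-phosphate dehydrogenase-like enzyme. Their root mean square distance from Slfn2 was 0.0365, 0.0409 and 0.0412 on the log2 scale, and 321 genes lay within 0.1. The nearest member was Slfn5 at a distance of 0.118, with 596 genes closer, followed by Slfn1 at 0.148. Likeness over 6 libraries is a description of these libraries only.

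Slfn1, the other short member and the founding gene of the family, was first described as a regulator of thymocyte growth. It was low in these B cells, with 94.0, 96.0 and 117.8 normalized counts in WT, against 73.0, 68.7 and 58.9 in hnRNPL-deficient cells, from 43 to 154 reads per library. The groups did not overlap. Its log2 fold change of -0.61 (SE 0.229, 95% interval -1.13 to -0.09) was the largest in size among the members, but its adjusted p was 0.129 in limma. It is on the plus strand at 83116849 to 83122670. Slfn1 passed both criteria under quantile normalization (adjusted p = 0.0897 from limma), without a mean-variance trend (0.0602) and with the replicate number as a block (0.0902), and in none of the other alternatives.

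Of the intermediate group, Slfn3 is known from T cells and from the differentiation of gut epithelium. It held 929.6, 691.7 and 711.2 normalized counts in WT, against 718.5, 624.0 and 560.6 in hnRNPL-deficient cells. One hnRNPL-deficient library stood above 2 of the WT libraries, and the adjusted p was 0.295 in limma (log2 fold change -0.29, SE 0.163). Leaving out WT library 1 gave -0.15. Slfn4, known from myeloid cells, was the lowest member at 59.2, 34.6 and 54.3 normalized counts in WT, against 39.7, 29.3 and 39.8 in hnRNPL-deficient cells. Its groups overlapped as well, with between 29 and 71 reads per library. Its log2 fold change of -0.41 had a 95% interval from -1.13 to 0.31 (adjusted p = 0.436 from limma). That interval included a 1.5-fold fall but not a 1.5-fold rise. It was wide, so changes of that size were hard to detect at this depth. The log2 fold change was -0.27 without WT library 1 or hnRNPL-deficient library 2 and -0.65 without WT library 2. Slfn4 is at 83175186 to 83190216 and Slfn3 directly after it at 83191330 to 83215154, both on the plus strand.

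Among the long members, Slfn5 is a nuclear protein that is known to be induced by type I interferon and to act on transcription. It held 7247, 7425 and 8361 normalized counts in WT, against 5996, 5709 and 5912 in hnRNPL-deficient cells. All 3 hnRNPL-deficient libraries lay close together and below every WT library. The mean was 23.5% lower, a log2 fold change of -0.38 (SE 0.0938, 95% interval -0.60 to -0.17, adjusted p = 0.0344 from limma). The adjusted p was 0.135 when WT library 3 was left out and 0.106 when hnRNPL-deficient library 2 was, and it was 0.122 under quantile normalization and 0.132 by edgeR on 5 libraries, so Slfn5 did not pass the adjusted p in these. The log2 fold changes there were -0.32, -0.36, -0.27 and -0.33. Slfn5 is on the plus strand at 82951349 to 82964840.

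Slfn8, a long member close in sequence to Slfn9 and studied in T cells and autoimmunity, held 7236, 6645 and 6890 normalized counts in WT, against 6549, 6343 and 8022 in hnRNPL-deficient cells. The lowest and the highest of the 6 values both came from hnRNPL-deficient mice. The log2 fold change was 0.00 (SE 0.112, adjusted p = 0.990 from limma), and its 95% interval, -0.25 to 0.26, lay inside the 1.5-fold limits of 0.585 either way. Its sign turned to below 0 when library 2 (-0.03) or 3 (-0.00) of the WT mice or library 3 of the hnRNPL-deficient mice (-0.10) was left out. Slfn9 held 2847, 2090 and 2308 normalized counts in WT, against 2335, 2067 and 1457 in hnRNPL-deficient cells. Its groups overlapped, and the log2 fold change of -0.32 (SE 0.189, adjusted p = 0.313 from limma) had an interval that included 0. It was -0.12 without hnRNPL-deficient library 3 and -0.20 without WT library 1. Both are on the minus strand, Slfn9 at 82978390 to 82991830 and Slfn8 at 83002158 to 83020810.

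Members were also set against each other as ratios within each library, which do not depend on the size factor. The pairs were not fixed beforehand. Slfn2 and Slfn5 had already passed the adjusted p, so their ratios over Slfn8 restate those fold changes and add no separate support. There were 1.16, 1.29 and 1.16 normalized counts of Slfn2 per count of Slfn8 in WT, and 0.978, 0.955 and 0.688 in hnRNPL-deficient cells. The groups did not overlap. For Slfn5 over Slfn8 the values were 1.00, 1.12 and 1.21 in WT and 0.916, 0.900 and 0.737 in hnRNPL-deficient cells, which again did not overlap. Each of these had an exact two-sided permutation p of 0.1, the smallest that 3 libraries against 3 can give (0.12 after Benjamini-Hochberg adjustment over the 6 ratios computed). Slfn9 over Slfn8 overlapped, at 0.315 to 0.393 in WT and 0.182 to 0.357 in hnRNPL-deficient cells (exact permutation p = 0.5).

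**Figure D2:**
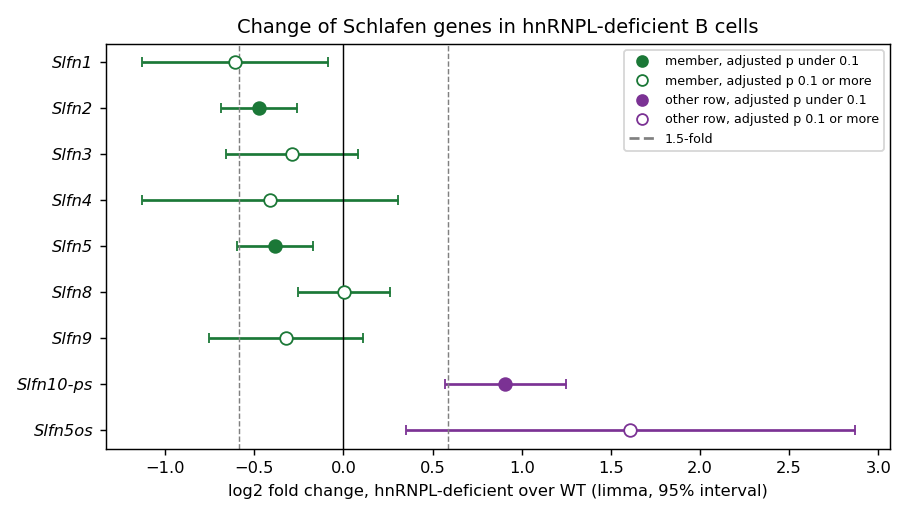
Log2 fold change of hnRNPL-deficient over WT cells (x axis) with its 95% interval from limma for the 7 members (green) and for Slfn10-ps and Slfn5os (purple); filled points passed an adjusted p of 0.1 and dashed lines mark a fold change of 1.5. Slfn2 (-0.47) and Slfn5 (-0.38) are the filled members, Slfn8 sits at 0, and Slfn10-ps is to the right at 0.91.

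One row with a Schlafen name rose. Slfn10-ps, annotated as a transcribed pseudogene between Slfn8 and Slfn2 (minus strand, 83028130 to 83040042), held 634.8, 463.4 and 495.5 normalized counts in WT, against 996.2, 945.0 and 1025 in hnRNPL-deficient cells. The groups were far apart. The mean was 1.86 times as high without hnRNPL, or 0.91 on the log2 scale (SE 0.148, adjusted p = 0.00749 from limma). It passed both criteria in each alternative, with log2 fold changes from 0.82 to 1.04. Reads of this pseudogene can be hard to assign, since 7.84% of its distinct 100-base windows occur also in another gene (181 in Slfn9 and 105 in Slfn8). The shared part was 3.71% for Slfn9, 3.39% for Slfn8, 2.92% for Slfn3 (93 windows in Gm11427) and 0.128% for Slfn2. Per count of Slfn8 there were 0.0877, 0.0697 and 0.0719 counts of Slfn10-ps in WT and 0.152, 0.149 and 0.128 in hnRNPL-deficient cells (exact permutation p = 0.1). This pair was not fixed beforehand either. The part of shared reads in the rise of Slfn10-ps was not tested.

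Antisense transcripts are annotated over Slfn5 and Slfn2. Slfn5os, which overlaps Slfn5 on the minus strand, held 20.9, 6.05 and 22.9 normalized counts in WT, against 51.4, 27.3 and 69.9 in hnRNPL-deficient cells. The groups did not overlap, but the log2 fold change of 1.61 (SE 0.551) narrowly missed the threshold, with an adjusted p of 0.1001 in limma. Gm20234, an antisense gene over Slfn2 that was named after its values were seen, held 25.5, 26.8 and 32.9 normalized counts in WT, against 54.99, 64.6 and 79.5 in hnRNPL-deficient cells. Its log2 fold change of 1.19 (SE 0.281, adjusted p = 0.0309 from limma) passed both criteria. These are low values, from 7 to 64 reads per library, far below the sense genes. The authors counted reads by strand, which separates the transcripts only as far as the library keeps strand. Slfn14 had 0 reads in every library but 1, where it had 1 read, and Slfnl1, which lies on another chromosome, had 5 to 14 reads per library and was not tested.

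The cluster as a whole spans 335.4 kb (82951349 to 83286726) and holds 25 rows of the table, of which 13 could be tested. Slfn10-ps and Gm20234 were the 2 that rose, and none fell, where 7.28% of all tested genes rose and 4.08% fell. In the plot of log2 fold change along the cluster, Slfn8 at 0.00 and Slfn10-ps at 0.91 lie between Slfn9 at -0.32 and Slfn2 at -0.47. Beyond Slfn2, the next tested row was Gm20234 at 1.19 on the other strand, which rose. Slfn1 at -0.61, Slfn4 at -0.41 and Slfn3 at -0.29 came next and were not called. After Slfn3, the pseudogene Gm11427, named after its values were seen, was lower at -0.50. It passed the adjusted p (0.0804 in limma) but not the fold change. The other tested rows, Gm11425 (-0.23), AI662270 (0.05) and Gm23444 (-0.26), passed neither. Among 10 neighbouring genes outside the family (such as Rad51d, a recombination gene, and Lig3, a DNA ligase), 7 could be tested. No neighbour was called by limma, edgeR or DESeq2, none had an unadjusted p under 0.05 in limma, and 1 had in edgeR and in DESeq2. Their median log2 fold change was 0.00.

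**Figure D3:**
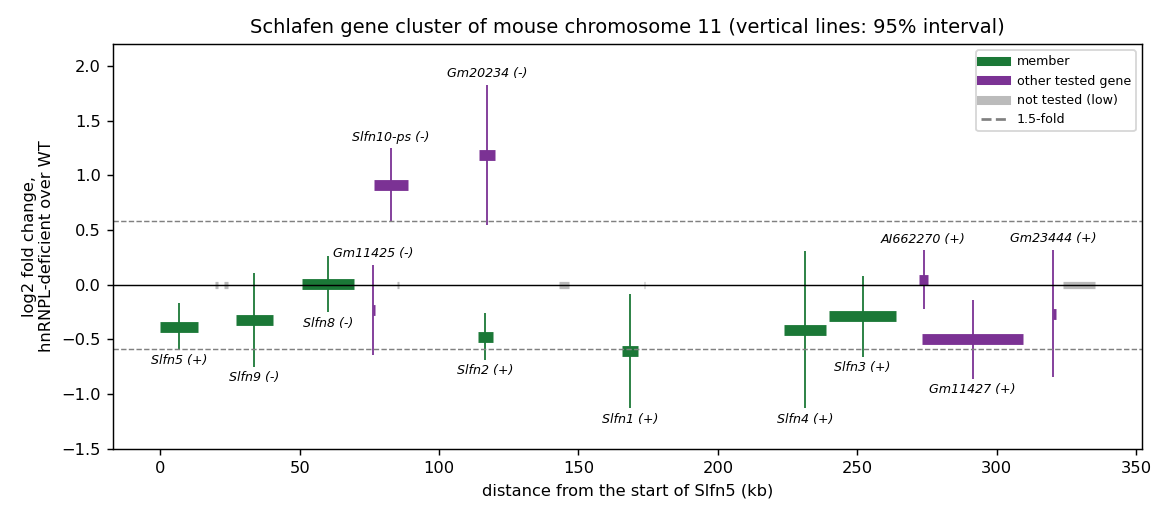
Log2 fold change of hnRNPL-deficient over WT cells (y axis) for each tested gene of the chromosome 11 cluster, drawn over its extent in kb from the start of Slfn5 (x axis), with 95% intervals, strand in parentheses and dashed lines at 1.5-fold. Members (green) range from -0.61 to 0.00, and 2 other genes lie above the upper line, Slfn10-ps at 0.91 and Gm20234 at 1.19.

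Because several Schlafen genes respond to interferon, their start regions were searched for the core of the interferon-stimulated response element, GAAANNGAAA on either strand, in the RefSeq windows from 250 bases before to 50 after each start (GRCm38.p6). All 7 members had a window. The core was found for the 3 long members and for none of the short and intermediate ones. It occurs in 3.44% of the 32851 such windows searched, which do not cover every chromosome. The stretches around it are printed because they divide the long members from the rest, with the core in capitals. They are written on the strand of the gene, where the core of Slfn8 and Slfn9 reads as its reverse complement:
Slfn5, chr11:82951937-82951966, plus strand: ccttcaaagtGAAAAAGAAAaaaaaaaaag
Slfn9, chr11:82991856-82991885, minus strand: atccgagcagTTTCGTTTTCccaaaaacaa
Slfn8, chr11:83020839-83020868, minus strand: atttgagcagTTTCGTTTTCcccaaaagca
The match begins 155 bases before the RefSeq start in Slfn5 and 45 before it in Slfn9. In Slfn8 it begins 48 bases before the nearer of the RefSeq starts. The RefSeq start of Slfn5 lies downstream of the gene start given above (82951349, from GENCODE), so its stretch falls inside that gene extent. The long members with the core included the one at 0.00 (Slfn8) and one past the adjusted p (Slfn5), and Slfn2, which has none in its window, was the other past the adjusted p. The interferon-gamma element TTCNNNGAA, its own reverse complement and present in 8.3% of the same windows, was found in no member's window. A match is a run of letters and not a shown binding site.

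Other interferon-stimulated genes were counted on the same fit. Of 34 tested, 9 fell, 2 rose and 23 were not called, where 4.08% of all tested genes fell and 7.28% rose. The log2 fold change was below 0 for 25 of the 34 (52.7% of all tested genes), with a median of -0.25, beside -0.03 over all tested genes. Oasl2, an oligoadenylate synthetase-like protein, fell from 1484, 1653 and 1722 normalized counts in WT to 348.9, 436.2 and 730.6 without hnRNPL, with -1.75 on the log2 scale. Isg15, a ubiquitin-like modifier, fell by 1.28 on the log2 scale. Ifit1, which binds foreign RNA, and Oasl1 had log2 fold changes of -1.19 and -1.14. The highest adjusted p of these 4 was 0.00390 in limma. Ifi44 rose from 52.0 ± 16.3 to 134.9 ± 20.6 normalized counts, or 1.39 on the log2 scale. Irf7, a transcription factor of the interferon response, held 1174, 1497 and 1295 normalized counts in WT, against 1980, 1988 and 1955 in hnRNPL-deficient cells and rose by a log2 fold change of 0.5854, just over the 1.5-fold limit. It fell short of that limit with a pseudocount of 5 and without WT library 1 or 3 or hnRNPL-deficient library 1 or 2, with 0.50 to 0.58. Of 14 genes of interferon signalling (receptors, kinases, transcription factors and inhibitors), 1 was called, lower, which is near the share of all tested genes that fell (4.08%). Socs3, an inhibitor of JAK kinases, fell by 0.79 on the log2 scale, from 1102 to 650.1 normalized counts on average, but it missed the adjusted p when WT library 3 was left out (0.112 in limma) and the fold change without hnRNPL-deficient library 3 (-0.57). The receptor genes Ifnar1 and Ifnar2 had log2 fold changes of 0.21 and -0.04, and neither was called.

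Genes linked to quiescence or to restraint of cell growth were counted in the same way. Of 21 tested, 6 rose, 1 fell and 14 were not called, beside 7.28% higher and 4.08% lower among all tested genes, which also had more genes called higher. The median log2 fold change was 0.26, beside -0.03 over all tested genes. Il7r, a cytokine receptor of resting lymphocytes, held 2.59 to 4.64 normalized counts in WT, against 27.1 to 37.0 in hnRNPL-deficient cells. It passed the filter on low values only through the hnRNPL-deficient libraries, having 3 to 5 reads in each WT library. With a mean of at least 50 asked for, 19 genes of the list were tested, of which 5 rose and 0 fell. Ccr7, a homing receptor of resting lymphocytes, rose from 1453 ± 107.1 to 2818 ± 93.2 normalized counts. Tob1, an antiproliferative gene, rose by a log2 fold change of 0.94, and Foxo3, a transcription factor of quiescent cells, by 0.89. Klf4, a factor that restrains lymphocyte proliferation, fell from 59.0 ± 8.87 to 25.3 ± 4.37 normalized counts, but its adjusted p in limma was 0.122 without WT library 2 and 0.134 without WT library 3. Slfn2, which belongs to this function, was lower by the adjusted p alone. By that criterion 9 of the 21 listed genes were higher and 2 were lower, beside 10.0% higher and 7.97% lower among all tested genes.

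**Figure D4:**
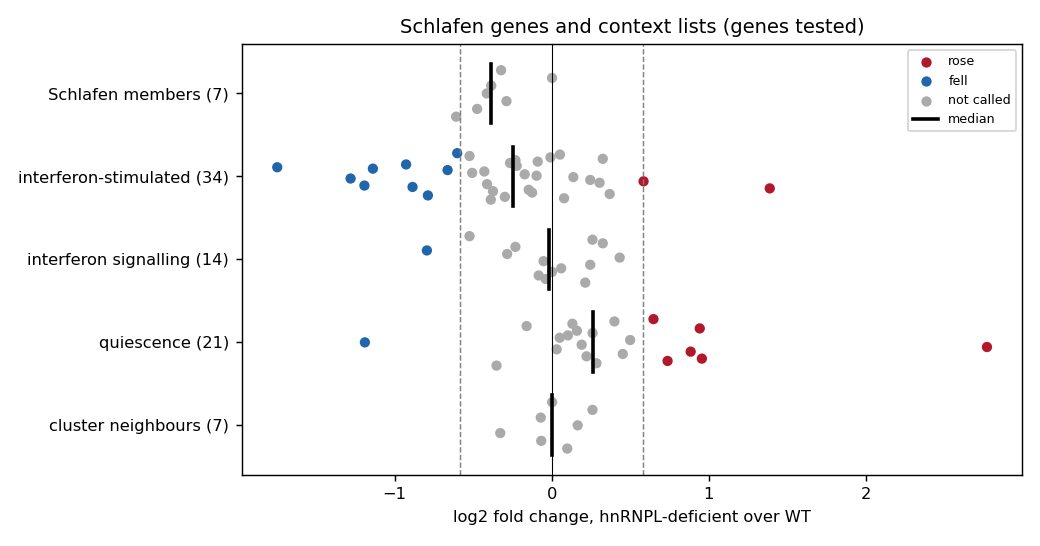
Log2 fold change of hnRNPL-deficient over WT cells (x axis) for each tested gene of 5 lists (rows, with the number tested); red genes rose, blue genes fell, black bars are medians and dashed lines mark 1.5-fold. The medians are -0.38 for the Schlafen members, -0.25 for interferon-stimulated genes and 0.26 for quiescence genes.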

How the data were processed

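Sorted GFP+ B cells, 3 libraries of each genotype, were compared, with groups taken from the labels. The authors trimmed reads with fastp 0.23.1, aligned them with STAR 2.7.9a to mm10, counted them by strand with featureCounts and divided counts by DESeq2 1.38.2 size factors. The deposited values are these normalized counts (unit: signal, not always whole). The deposited columns of the authors' own DESeq2 comparison (mean, fold change, standard error, statistic, p-values and a label) were not used. All values came out as whole reads per library (100%, tolerance 0.01). Reads of hnRNPL-deficient library 2 were recovered as well, but the automatic test did not read that library. edgeR and DESeq2 were therefore run on 5 libraries, which was chosen after seeing the data. By edgeR 1144 genes rose and 578 fell, and by DESeq2 1180 and 721. The main test was limma 3.58.1 (R 4.3.3) on normalized counts as log2(value + 1), eBayes with trend, over genes with a mean of at least 10, with Benjamini-Hochberg adjustment over all 17640. edgeR 4.0.16 and DESeq2 1.42.0 were the alternatives, with other pseudocounts, filters, scalings, thresholds, a replicate block and each library left out. Fold changes are on the log2(value + 1) scale, which understates those of low genes. Members, lists and the rule for named genes (the 7 members, other Slfn rows, Hnrnpl and up to 4 called genes of each list and direction) were chosen with earlier results of these data known. Cell type markers were listed too, and some listed genes are not reported here. Gene positions are from GENCODE on GRCm38 and promoter windows from RefSeq. Shared sequence was counted as identical 100-base windows of transcripts. The fit was tested on simulated data. Each library is 1 mouse.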

Additional observations from a re-analysis of the deposited data

How the results depend on the processing

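Of 118 values of member log2 fold changes under alternatives, 112 kept their direction and the joint outcome of both criteria (Slfn5 missed the adjusted p alone in 4 of these), 3 passed both where the reported value did not (Slfn1: -0.74 with quantile normalization, -0.61 without a trend and with the replicate block) and 3 changed sign (Slfn8: -0.03, -0.00 and -0.10, in fits that left out 1 library, whose range was -0.10 to 0.0669). The number of members that fell went from 0 to 1 with quantile normalization, without a trend and with the replicate block, and to 2 at any fold change; with each library left out it was 0. The number past the adjusted p alone went from 2 lower to 1 by edgeR on 5 libraries, to 3 without a trend and with the replicate block, and was 1 to 2 with each library left out. Under quantile normalization it stayed 2, but these were Slfn1 and Slfn2. Interferon-stimulated genes that rose went from 2 to 1 with a pseudocount of 5, and were 1 to 2 with each library left out. With stricter limits (0.05 for the adjusted p and 2-fold), 1 rose and 4 fell. Without WT library 3, 850 genes rose and 483 fell, compared with 1284 and 719 from all 6 libraries. Equal totals moved the median of all genes by 0.0552 (log2), and quantile normalization by 0.00185. Slfn5os passed with a pseudocount of 5 (adjusted p = 0.0876 from limma), robust fitting (0.0989), the replicate block (0.0101), without hnRNPL-deficient library 2 (0.0830), by edgeR (0.0714) and by DESeq2 (0.0337).

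Same-numbered libraries had correlated deviations of 0.429, 0.320 and 0.0663 from their group means, and WT library 3 correlated best with hnRNPL-deficient library 2 (0.305), so the numbers were not taken as a pairing. With the replicate block, 1755 genes rose and 1018 fell. Slfn4 (29 to 71 reads per library) and Slfn5os (7 to 57) are among the rows whose depth limits precision.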
